A study of Mus musculus with 14 samples.

Results

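The miR-99a/let-7c/miR-125b cluster of mouse chromosome 16 and its chromosome 9 counterpart were followed in small RNA libraries from macrophage exosomes and cell lysates. The 8 members were taken by name from the 1250 lines of the table. They are mmu-miR-99a-5p, mmu-miR-99a-3p, mmu-let-7c-5p, mmu-let-7c-1-3p, mmu-miR-125b-5p and mmu-miR-125b-2-3p, with mmu-miR-100-5p and mmu-miR-125b-1-3p from chromosome 9, and the prefix is left out below. Libraries came from 4 groups, namely exosomes of IL4-stimulated macrophages (4 libraries), exosomes of control macrophages (4), lysates of IL4-stimulated macrophages (3) and lysates of control macrophages (3). The controls are titled WT, and all 14 libraries have bone marrow as their source and excised bone as their tissue label. Exosomes are small vesicles that cells release, and these were purified from cleared culture supernatant on an OptiPrep density gradient. The sources used here name no mouse strain, sex, age, IL4 dose or length of stimulation. Within a compartment each date in the titles has 1 IL4 and 1 control library, and no date is shared between exosomes and lysates, so compartment and date cannot be told apart.

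MicroRNAs (miRNAs) are short RNAs cut from a hairpin precursor, whose arms give a 5p and a 3p product, and they repress messenger RNAs that pair with their seed, the bases from position 2 to position 8. Mammalian clusters that join these families, miR-99/100 first, then let-7, then miR-125, arose from an ancestral cluster. IL4 signals through the transcription factor STAT6 and turns macrophages to the alternative activation state linked to tissue repair. The miR-99/100 family is known for repressing mTOR and the IGF1 receptor, let-7 for holding back proliferation and the RNA-binding protein LIN28, and miR-125b for its activity in blood stem cells and in macrophage activation. miR-99a-5p is among the miRNAs that the study itself picked on these samples, so its direction here is not independent evidence.

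The mature sequences are shown because the 5p members share seeds with their paralogs and, in one case, differ at a single base, which bears on how reads can be assigned to lines. They are RNA sequences from RefSeq (GRCm38.p6), written 5′ to 3′, and the capitals mark the seed. The first 4 are the 5p members, the next 4 are the 3p members, and the last 3 are the paralogs from the chromosome 17 cluster.
miR-99a-5p: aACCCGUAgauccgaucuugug
miR-100-5p: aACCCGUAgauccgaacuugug
let-7c-5p: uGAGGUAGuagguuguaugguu
miR-125b-5p: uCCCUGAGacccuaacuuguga
miR-99a-3p: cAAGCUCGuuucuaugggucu
let-7c-1-3p: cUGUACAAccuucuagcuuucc
miR-125b-2-3p: aCAAGUCAgguucuugggaccu
miR-125b-1-3p: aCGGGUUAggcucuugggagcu
miR-99b-5p: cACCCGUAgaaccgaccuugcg
let-7e-5p: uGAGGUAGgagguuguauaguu
miR-125a-5p: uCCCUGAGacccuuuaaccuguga

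The seed ACCCGUA was shared by 3 of these sequences, miR-99a-5p, miR-100-5p and miR-99b-5p. The seed GAGGUAG was shared by let-7c-5p and let-7e-5p, and CCCUGAG by miR-125b-5p and miR-125a-5p. None of the 3p seeds was shared among the sequences shown. Counted from 1 at the 5′ end, miR-100-5p differed from miR-99a-5p by U16A alone. The paralog miR-99b-5p differed from miR-99a-5p by A1C, U11A, U16C and U21C, and let-7e-5p from let-7c-5p by U9G and G19A. let-7a-5p differed from let-7c-5p by G19A alone. Reads of miR-99a-5p and miR-100-5p, and of let-7c-5p and let-7a-5p, are therefore uncertain where the authors' counting could split them.

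The hairpins of miR-99a and miR-100 are shown because these members behaved most unlike each other between the compartments. They are RNA from RefSeq (GRCm38.p6, plus strand), and the capitals mark the mature arms.
Mir99a: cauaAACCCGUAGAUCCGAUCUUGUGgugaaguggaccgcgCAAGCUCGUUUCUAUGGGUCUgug
Mir100: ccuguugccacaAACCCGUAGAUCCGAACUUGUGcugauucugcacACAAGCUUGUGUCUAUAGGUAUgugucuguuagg

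In GRCm38 the hairpin gene Mir99a lies at chr16:77598936-77599000 and Mirlet7c-1 at chr16:77599657-77599750, with starts 0.721 kb apart. Mir125b-2 lies at chr16:77646273-77646343, 47.3 kb from the start of Mir99a. All are on the plus strand in introns of the long non-coding host gene Mir99ahg (chr16:77236317-77773427). Mir99a and Mirlet7c-1 also lie in an intron of Gm11146 on the opposite strand, and Mir125b-2 overlaps an exon of the gene model C130023A14Rik. The chromosome 9 cluster has Mir100 at chr9:41531425-41531504, Mirlet7a-2 at chr9:41536716-41536811 and Mir125b-1 at chr9:41581926-41582002, in introns of 3110039I08Rik on the plus strand. On the minus strand Mir100 lies within an exon of Gm48742. A second let-7c gene, Mirlet7c-2, lies in an exon of Lncppara at chr15:85706603-85706697.

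**Figure D1:**
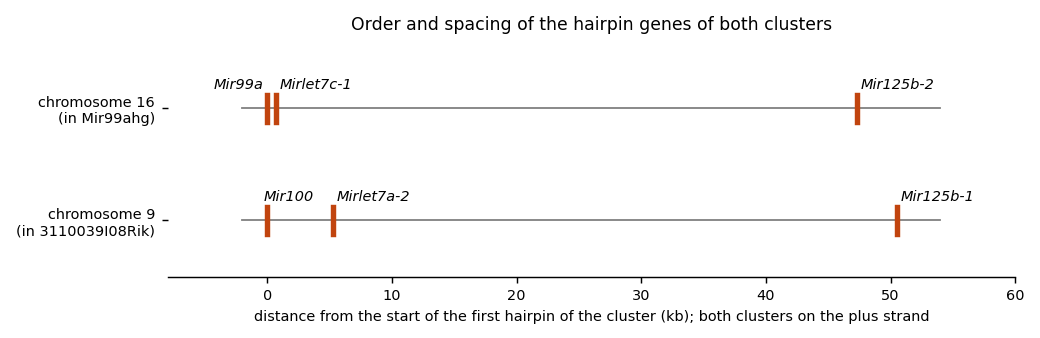
Order and spacing of the hairpin genes (vertical bars) of the chromosome 16 and chromosome 9 clusters, as the distance in kb from the start of the first hairpin. Both clusters have a short first interval and a long second one, with the miR-125b gene 47.3 kb and 50.5 kb from the first hairpin.

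Because let-7c-5p comes from Mirlet7c-1 and Mirlet7c-2 with the same sequence, and miR-125b-5p from Mir125b-2 and Mir125b-1, these lines do not tell their genes apart. The 3p arms differ between the genes. Over the pooled reads of a group, miR-125b-2-3p made up 78 of 81 reads of the miR-125b 3p arms in IL4 exosomes (96.3%, exact 95% interval 89.6 to 99.2%) and 30 of 33 in control exosomes (90.9%, 75.7 to 98.1%). In lysates it made up 2206 of 2209 with IL4 (99.9%, 99.6 to 99.97%) and 1317 of 1334 in controls (98.7%, 98.0 to 99.3%). Nearly all sequenced miR-125b 3p reads in the 4 groups thus carried the sequence of the chromosome 16 gene. The 3p arm of let-7c-2 has 1 line together with let-7a-1-3p, so it was not read as a product of let-7c alone.

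The exosome libraries held 28417 to 411671 counts and the lysates 3941480 to 6792079. One count was worth 2.43 to 35.2 CPM (each count over its library total, rescaled) in exosomes and 0.147 to 0.254 CPM in lysates. Intervals and floors cover counting error only. All 5 macrophage and myeloid markers were detected in each group and took 1.69 to 2.15% of reads in IL4 exosomes, 2.85 to 4.09% in control exosomes, 1.27 to 1.91% in IL4 lysates and 3.08 to 3.35% in control lysates. Markers of other cells stood far higher in exosomes. All 4 erythroid markers together took 2.18 to 3.05% of reads in IL4 exosomes and 2.95 to 5.53% in control exosomes, against 0.0120 to 0.0152% in IL4 lysates and 0.0117 to 0.0211% in control lysates. The 7 epithelial markers took 0.0360 to 10.5% in IL4 exosomes and 0.0849 to 4.89% in control exosomes, with both highest values on 25 January. They took 0.0161 to 0.0200% in IL4 lysates and 0.0221 to 0.0267% in control lysates, and the epithelial marker miR-205-5p was at 0 in all lysates. Summed lymphocyte, endothelial and muscle markers, and those of liver, gut and serum, were also higher in every exosome library than in any lysate, while stromal markers overlapped. The exosome libraries of 25 January therefore stand apart, and the tests were repeated without them. The labels do not say whether libraries of a group came from separate animals, and the p-values therefore reflect variation among libraries that may be technical.

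In IL4 exosomes the 8 members together took 4.37, 3.55, 4.50 and 6.05% of reads (replicates 1 to 4), and in control exosomes 3.96, 2.96, 3.12 and 6.28%. In lysates they took 4.71, 4.56 and 4.31% with IL4 and 3.45, 2.88 and 4.06% in controls. The exosome groups overlap, whereas every IL4 lysate lies above every control lysate. let-7c-5p was the most abundant member in all 14 libraries. It ranked 8 by mean CPM among all lines in IL4 exosomes, 9 in control exosomes, 5 in IL4 lysates and 6 in control lysates.

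**Figure D2:**
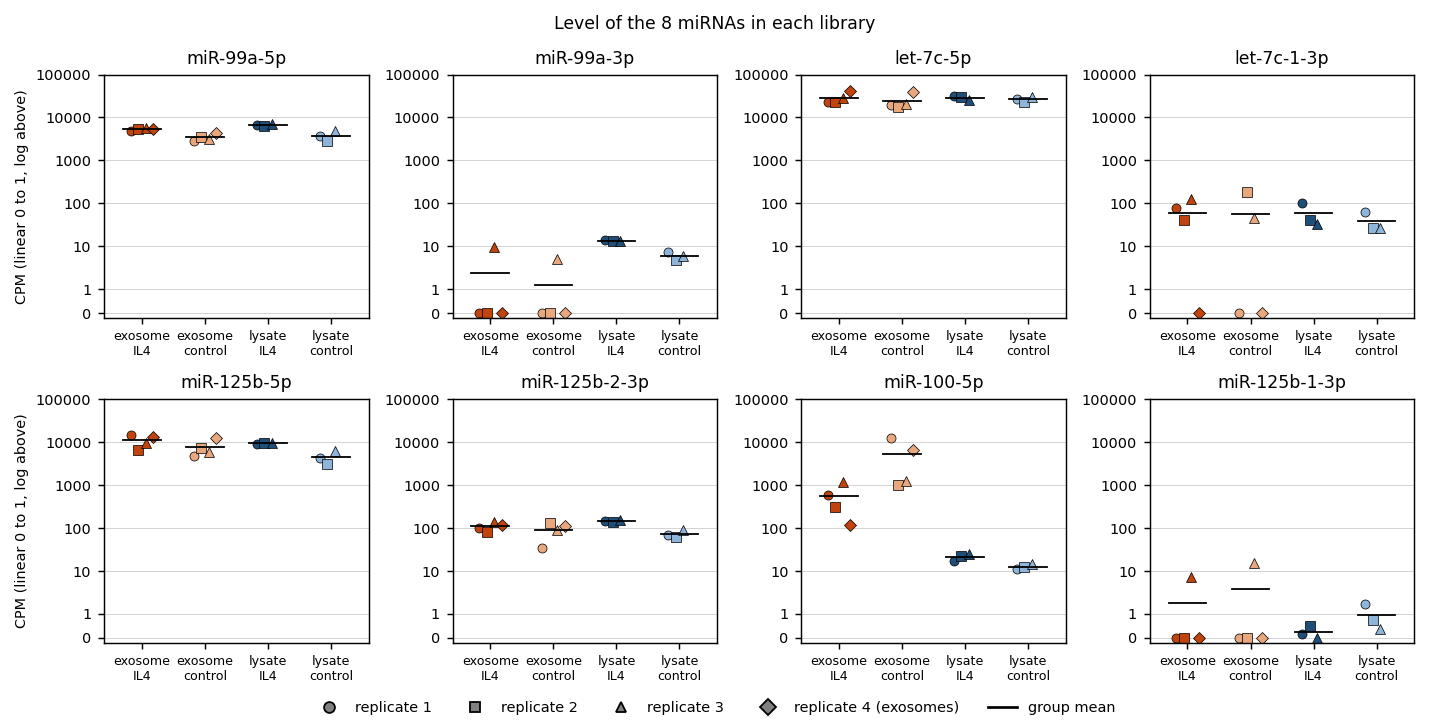
Level of each of the 8 miRNAs in CPM (linear from 0 to 1, logarithmic above) in every library, with points as libraries, symbols as replicate numbers and black lines as group means. miR-100-5p lies between 117 and 12351.8 CPM in exosomes and between 11.1 and 24.3 CPM in lysates. Over both conditions, the values of each other 5p member overlap between the compartments. In IL4 samples alone, miR-99a-5p lies lower in every exosome library than in any lysate.

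In lysates, miRNAs from both ends of the chromosome 16 cluster rose with IL4. Both arms of miR-99a, together with miR-125b-2-3p and miR-125b-5p, were 2.05 to 2.58 times as high in IL4 lysates as in control lysates. These folds are on edgeR's TMM scale, and with scaling by library size they were 1.77 to 2.22. let-7c-5p, from the hairpin next to Mir99a, had a fold of 1.26 on the TMM scale that did not pass the test. In such bulk samples, fewer cells of a type and less RNA per cell cannot be told apart. The summed myeloid markers were lower in every IL4 lysate than in any control lysate, and their part in these differences was not tested.

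miR-99a-5p had 6675, 6344 and 6964 CPM in IL4 lysates, against 3606, 2905 and 4775 CPM in control lysates. The groups did not overlap, and the IL4 library was the higher one at 3 of 3 dates. The mean was 6661 ± 310 CPM with IL4 and 3762 ± 944 CPM in controls (SD, n = 3 each), a log2 fold change of 1.03 (SE 0.22, edgeR quasi-likelihood test, adjusted p = 0.0264). Here and below, log2 fold changes are on edgeR's TMM scale, p-values are two-sided and adjusted by Benjamini-Hochberg over all lines tested, and a line is called at 0.05 or less.

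The passenger arm miR-99a-3p had 13.8, 12.9 and 13.2 CPM in IL4 lysates, against 7.48, 4.71 and 5.81 CPM in control lysates. All 3 IL4 values lay above all 3 control values, with a log2 fold change of 1.37 (SE 0.26, edgeR adjusted p = 0.0224). This arm was rare, at 0.200% of the reads of both arms in IL4 lysates (exact 95% interval 0.173 to 0.230%) and 0.160% in control lysates (0.131 to 0.193%).

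miR-125b-5p had 9271, 9503 and 9791 CPM in IL4 lysates, against 4201, 3122 and 6109 CPM in control lysates. Its log2 fold change was 1.30 (SE 0.25, edgeR adjusted p = 0.0224), and the groups did not overlap. The 3p arm of the chromosome 16 gene, miR-125b-2-3p, had 148, 141 and 153 CPM in IL4 lysates, against 70.1, 62.3 and 89.1 CPM in control lysates. It rose by a log2 fold change of 1.20 (SE 0.24, edgeR adjusted p = 0.0228), again with no overlap. For both of these lines the IL4 lysates varied less than the control lysates, of which replicate 2 was the lowest and replicate 3 the highest.

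let-7c-5p had 30828.2, 29549.1 and 26146.3 CPM in IL4 lysates, against 26516.9, 22670.2 and 29535.2 CPM in control lysates. The groups overlapped, and at the date of replicate 3 the control library was the higher one (log2 fold change 0.33, SE 0.14, edgeR adjusted p = 0.332). let-7c-1-3p, which is specific to the chromosome 16 gene, had 104.2, 41.6 and 33.1 CPM in IL4 lysates, against 62.3, 26.7 and 26.3 CPM in control lysates. Its IL4 library was the higher one at 3 of 3 dates although the groups overlapped (0.82, SE 0.43, edgeR adjusted p = 0.488). In the fit that blocks on date it passed (0.78, edgeR adjusted p = 0.0134).

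The chromosome 9 member miR-100-5p had 16.9, 21.8 and 24.3 CPM in IL4 lysates, against 11.1, 12.2 and 14.3 CPM in control lysates. These came from 310 and 226 counts, and the part of misassigned miR-99a-5p reads in them was not tested. The groups did not overlap, but the difference did not pass (0.95, SE 0.29, edgeR adjusted p = 0.137). It passed in the fit that blocks on date (0.93, edgeR adjusted p = 0.0241) and without IL4 replicate 1 (1.16, edgeR adjusted p = 0.0468). miR-125b-1-3p had 3 counts in all IL4 lysates together and 17 in all control lysates together, and was too low to be tested.

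Of the 7 members tested in lysates, all 7 had positive log2 fold changes, with a median of 1.03 against 0.00 over the 443 lines tested, and 4 rose. Over all lines, 5.87% were called higher and 7.22% in either direction. CPM ranges did not overlap with IL4 higher for 5 of the 7 members, against 8.8% of all lines. These calls are near the threshold. In the tests without IL4 replicate 2, without IL4 replicate 3 or without control replicate 2, none of the 4 was called, with edgeR adjusted p between 0.106 and 0.22. Without control replicate 1, the calls of miR-99a-5p (adjusted p = 0.0804), miR-125b-2-3p (0.0579) and miR-125b-5p (0.0579) were lost, and without control replicate 3, miR-99a-3p (0.0805). Scaling by library size alone also ended the 4 calls (adjusted p of 0.0531 to 0.0903). In 1 fit of all 14 libraries, miR-99a-5p (adjusted p = 0.155), miR-125b-2-3p (0.243) and miR-125b-5p (0.325) were not called, and miR-99a-3p was too low to be tested. In the fit that blocks on date the 4 stayed called (edgeR adjusted p of 0.00167 to 0.0181), as with DESeq2 (adjusted p of 4.12e-05 to 0.00106). The log2 fold changes of the 4 stayed between 0.82 and 1.61 in every alternative run.

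**Figure D3:**
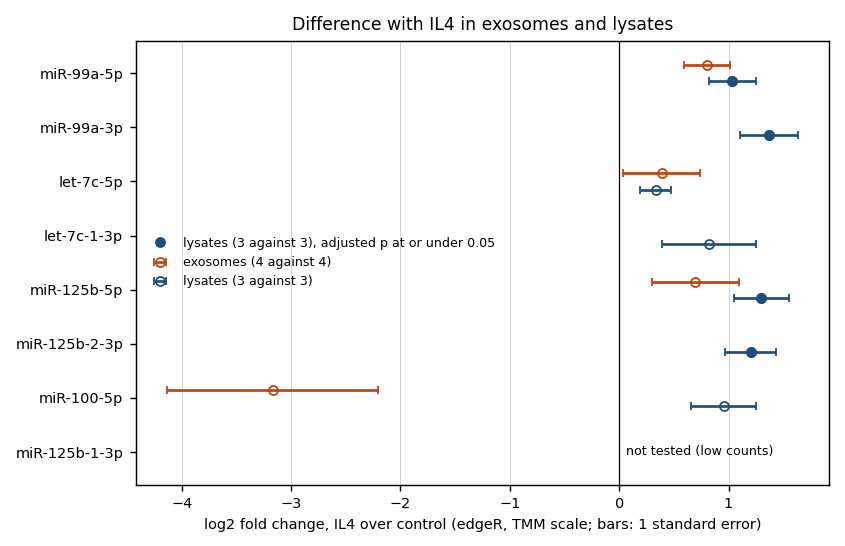
Log2 fold change with IL4 (IL4 over control, edgeR, bars of 1 standard error) for each member in exosomes (orange) and lysates (blue), with filled points for adjusted p at or under 0.05. In lysates all 7 tested members lie above 0 and 4 are filled, while in exosomes miR-100-5p lies at -3.17 and none is filled.

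In exosomes, 4 members were abundant enough to be tested and none was called, while 0.549% of the 182 lines tested were called in either direction. The 3 chromosome 16 members had positive log2 fold changes and miR-100-5p had a large negative one. The median over the tested members was 0.54, against -0.09 over all lines tested.

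miR-99a-5p had 4897, 5479, 5767 and 5422 CPM in IL4 exosome replicates 1 to 4, against 2815, 3475, 3135 and 4292 CPM in control exosome replicates 1 to 4. The groups did not overlap, which held with IL4 higher for 2.75% of all lines, and the IL4 library was the higher one at 4 of 4 dates. The log2 fold change was 0.80 (SE 0.21, edgeR adjusted p = 0.216), with the second lowest unadjusted p of the 182 lines (0.00377). DESeq2 called it (0.90, adjusted p = 0.00797), as did edgeR without control replicate 4 (1.12, adjusted p = 0.0225). The other 14 alternatives did not. Among these, edgeR gave 0.83 with a block on date (adjusted p = 0.0821) and 0.65 with scaling by library size (adjusted p = 0.347). Without both libraries of 25 January, edgeR gave 0.795 (adjusted p = 0.466).

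let-7c-5p had 23365, 22988.5, 28075.8 and 41718.3 CPM in IL4 exosomes, against 19530.6, 17414.2, 20711 and 39151.4 CPM in control exosomes. Replicate 4 was the highest in both groups, so the groups overlapped widely although IL4 was higher at 4 of 4 dates (0.39, SE 0.35, edgeR adjusted p = 0.862). miR-125b-5p had 14690.6, 6605, 9724 and 13163.2 CPM in IL4 exosomes, against 4821, 7392, 5904 and 12549.2 CPM in control exosomes. The IL4 library was the higher one at 3 of 4 dates, and the log2 fold change of 0.70 did not pass (SE 0.40, edgeR adjusted p = 0.804). Without both libraries of 25 January it was 0.36 (adjusted p = 0.950), and without control replicate 4 it was 1.27 (adjusted p = 0.214).

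The 3p arms had too few exosome counts to pass the filter of the IL4 test. miR-125b-2-3p had 99.9, 80.4, 141 and 117 CPM in IL4 exosomes, against 35.2, 129, 90.4 and 109 CPM in control exosomes, from 78 and 30 counts in all. let-7c-1-3p had 80.0, 40.2, 124 and 0 CPM in IL4 exosomes, against 0, 184, 45.2 and 0 CPM in control exosomes. miR-99a-3p had 4 counts in all IL4 exosomes together and 1 in all control exosomes together, and miR-125b-1-3p had 3 in each group. All of these miR-99a-3p and miR-125b-1-3p counts came from replicate 3, the deepest library of either group. In 1 fit of all 14 libraries, miR-125b-2-3p had a log2 fold change of 0.50 with IL4 (edgeR adjusted p = 0.853) and let-7c-1-3p of 0.35 (adjusted p = 0.93). No 3p arm was called with no filter on low counts either (adjusted p of 0.763 to 0.901).

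miR-100-5p varied widely among the exosome libraries. It had 600, 308, 1183 and 117 CPM in IL4 exosome replicates 1 to 4, against 12351.8, 1030, 1266 and 6671 CPM in control exosome replicates 1 to 4. The control library was the higher one at 4 of 4 dates, by a wide margin in replicates 1 and 4 and by a narrow one in replicate 3. The groups overlapped because IL4 replicate 3 lay above control replicate 2. The mean was 552 ± 465 CPM with IL4 and 5330 ± 5358 CPM in controls (SD, n = 4 each). The log2 fold change of -3.17 did not pass (SE 0.96, edgeR adjusted p = 0.243), and without both libraries of 25 January it was -2.28 (adjusted p = 0.719). It was -2.12 without control replicate 1 and -3.74 without IL4 replicate 3, with no call. DESeq2 gave -3.14 with an adjusted p of 0.00797. With no filter on low counts, edgeR gave -2.89 with an adjusted p of 5.26e-12. That fit rests on the same overlapping libraries, with 758 lines tested against 182, and why its p is so much lower was not tested. The other 13 alternatives did not call miR-100-5p.

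The 4 muscle markers together took 0.0660, 0.0442, 0.0615 and 0.0287% of reads in IL4 exosome replicates 1 to 4, against 0.123, 0.0772, 0.0427 and 0.336% in control exosome replicates 1 to 4. As for miR-100-5p, the highest values were those of control replicates 1 and 4, and the lowest was that of IL4 replicate 4. Muscle was highest in control replicate 4, however, and miR-100-5p in control replicate 1. At the date of replicate 3 the muscle markers were higher with IL4, whereas miR-100-5p was lower. Muscle is set beside miR-100-5p with both sets of values known, and other lists differ. The markers of liver, gut and serum were lowest in control replicate 4 (0.142%), and the epithelial markers were highest in IL4 replicate 1 (10.5%). miR-206-3p, which is specific to skeletal muscle, was at 0 in all control exosomes. The part of such RNA in the miR-100-5p levels was not tested.

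Between the compartments, miR-100-5p was far higher in exosomes than in lysates, whereas the miR-99a-5p level was not. In control samples miR-100-5p was 255-fold higher in exosomes (log2 fold change 7.99, SE 1.14, edgeR adjusted p = 7.07e-05), and in IL4 samples 15.9-fold (3.99, SE 0.94, edgeR adjusted p = 0.00314). The lowest exosome value was above the highest lysate value in both conditions, as was so for 27.2% of the 338 lines tested in control samples and 28.7% in IL4 samples. Over all lines 50.9% were called in control samples (29.3% higher and 21.6% lower) and 49.4% in IL4 samples (30.2% higher and 19.2% lower). miR-100-5p was called in all 20 alternatives run in each condition. Its fold in control samples was 135 without both exosome libraries of 25 January, 166 without control exosome replicate 1 and 421 with scaling by library size. In IL4 samples the fold was 15.4 without the libraries of 25 January and 26.9 with library size. The part of RNA from other cells, whose markers were higher in exosomes, in these differences was not tested.

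miR-99a-5p, at 3430 ± 635 CPM in control exosomes (n = 4) and 3762 ± 944 CPM in control lysates (n = 3), fell in exosomes on the TMM scale (-0.93, SE 0.25, edgeR adjusted p = 0.00586). In IL4 samples it had 5391 ± 362 CPM in exosomes (n = 4) and 6661 ± 310 CPM in lysates (n = 3), with a log2 fold change of -1.003 (SE 0.25, edgeR adjusted p = 0.00417). The IL4 exosomes lay below the IL4 lysates with no overlap, as was so for 7.69% of all lines. let-7c-5p was called lower in control exosomes (-0.89, SE 0.32, edgeR adjusted p = 0.0302) and not in IL4 exosomes (-0.66, adjusted p = 0.101), where it was called with no filter on low counts (-0.90, adjusted p = 0.00527) and without control exosome replicate 4 (-0.59, adjusted p = 0.0323). miR-125b-2-3p was called lower in IL4 exosomes (-1.10, SE 0.36, edgeR adjusted p = 0.0200) and not in control exosomes (-0.48, adjusted p = 0.325). miR-125b-5p and let-7c-1-3p were called in neither condition.

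These falls depend on the scaling. With library size alone the log2 fold change of miR-99a-5p was -0.13 in control samples (edgeR adjusted p = 0.734) and -0.30 in IL4 samples (0.308), and that of let-7c-5p was -0.11 in control and 0.01 in IL4 samples. That of miR-125b-2-3p was 0.35 in control samples and -0.38 in IL4 samples. The median log2 difference over all lines was -0.18 in control and -0.01 in IL4 samples with TMM, against 0.63 and 0.68 with library size. Of the calls in control samples, 57.6% were higher in exosomes with TMM and 88.7% with library size. In IL4 samples the shares were 61.1% with TMM and 91.4% with library size. With DESeq2's size factors in edgeR, the calls of miR-99a-5p (adjusted p = 0.0741) and let-7c-5p (0.223) in control samples and of miR-125b-2-3p (0.0633) in IL4 samples were lost. In a fit of the control libraries alone, miR-99a-5p (adjusted p = 0.054) and let-7c-5p (0.143) were not called. The let-7c-5p call in control samples was also lost with DESeq2 (adjusted p = 0.243), without both exosome libraries of 25 January (adjusted p = 0.0522), and without any one of IL4 exosome replicate 3, control exosome replicates 1, 2 and 3 and control lysate replicates 2 and 3 (adjusted p of 0.0593 to 0.161). That of miR-99a-5p was lost without control exosome replicate 1 (-0.58, adjusted p = 0.0572). In IL4 samples the miR-125b-2-3p call was lost without any one of IL4 exosome replicates 1, 2 and 4, the IL4 lysates or control lysate replicate 3 (adjusted p of 0.051 to 0.153), and with no filter on low counts (0.11).

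The IL4 effect of miR-100-5p had opposite signs in the compartments, at 4 of 4 exosome dates lower with IL4 and at 3 of 3 lysate dates higher. In lysates this line had 310 counts with IL4 and 226 in controls, beside 99847 and 66791 of miR-99a-5p. These lines differ by U16A alone, and the part of misassigned miR-99a-5p reads in the lysate counts was not tested. The difference of the effects was -4.005 on the log2 scale (SE 1.19, unadjusted p = 0.00434). It had the lowest unadjusted p of the 338 lines, but did not pass (edgeR adjusted p = 0.857). It was -3.13 without both exosome libraries of 25 January (adjusted p = 0.741), -3.16 without control exosome replicate 1, -3.41 without IL4 exosome replicate 4 and -4.71 without IL4 exosome replicate 3, with no call. Neither edgeR nor DESeq2 called any line for this difference, 14 lines had an unadjusted p under 0.05 in edgeR, and edgeR with no filter on low counts called 3. With no filter miR-100-5p was called (edgeR adjusted p = 7.26e-06), from the same libraries with 1250 lines tested. The other 19 alternatives did not call it, and why this p is so much lower was not tested. For miR-99a-5p the difference of the effects was -0.08 (SE 0.35, edgeR adjusted p = 0.9999).

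Ratios between members within a library need no scaling factor. Their exact permutation tests over libraries are two-sided and adjusted by Benjamini-Hochberg over the 37 ratios and comparisons tested. None passed. The smallest possible p is 0.029 for the exosome comparisons and for exosomes against lysates, and 0.1 for 3 lysates against 3. Even at 0.029, an adjusted call needs most of the 37 tests to have so low a p. A ratio that did not pass is therefore not shown to be unchanged.

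The ratio of miR-99a-5p to miR-100-5p was 8.05, 17.4, 4.87 and 43.8 in IL4 exosomes, against 0.229, 3.35, 2.47 and 0.644 in control exosomes. The groups did not overlap, and miR-100-5p exceeded miR-99a-5p only in control replicates 1 and 4 among these 8 libraries. The difference was 3.65 on the log2 scale (exact permutation p = 0.029, adjusted p = 0.132). Without control replicate 1 it was 2.91, and without both libraries of 25 January it was 3.15 (exact permutation p = 0.1, the smallest possible, adjusted p = 0.195). In lysates the ratio was 393, 289 and 285 with IL4 and 322, 236 and 331 in controls, which overlapped (exact permutation p = 0.6, adjusted p = 0.716). When both lines, which differ by U16A, were summed, the sum had a log2 fold change of -0.35 with IL4 in exosomes (edgeR adjusted p = 0.902) and 1.03 in lysates (adjusted p = 0.0267). Between exosomes and lysates the sum was 0.47 in control samples (adjusted p = 0.374) and -0.85 in IL4 samples (adjusted p = 0.102).

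**Figure D4:**
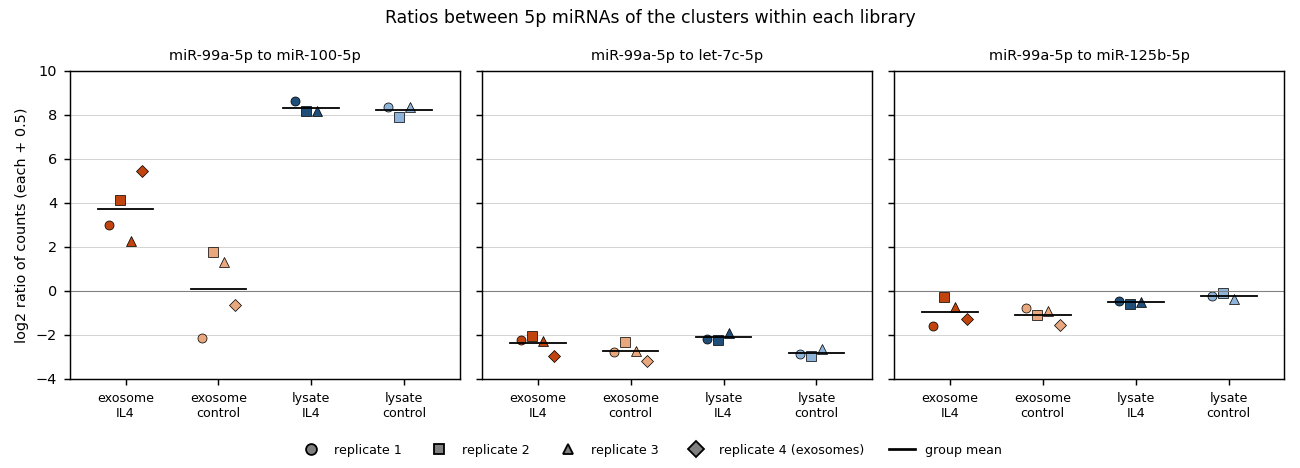
Log2 ratio of counts (each + 0.5) of miR-99a-5p to miR-100-5p, let-7c-5p and miR-125b-5p in every library, with symbols as replicate numbers and black lines as group means. The first ratio has means of 3.72 in IL4 exosomes and 0.07 in control exosomes, and of 8.32 in IL4 lysates and 8.20 in control lysates, while the other ratios span less than 2 log2 units within a panel.

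Relative to let-7c-5p, miR-99a-5p and miR-125b-5p stood higher in every IL4 lysate than in any control lysate, although neither ratio passed its test. The ratio of miR-99a-5p to let-7c-5p was 0.217, 0.215 and 0.266 in IL4 lysates, against 0.136, 0.128 and 0.162 in control lysates. That of miR-125b-5p to let-7c-5p was 0.301, 0.322 and 0.375 in IL4 lysates, against 0.158, 0.138 and 0.207 in control lysates. Neither ratio's groups overlapped, and both reached the smallest exact permutation p of 0.1 (adjusted p = 0.206), with folds of 1.64 and 2.002. miR-99a-5p to miR-125b-5p was lower in every IL4 lysate than in every control lysate, by a fold of 0.818 (exact permutation p = 0.1, adjusted p = 0.206). The ratios of the 5p to the 3p arm overlapped between IL4 and control in both compartments wherever they could be tested.

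The paralogous cluster on chromosome 17, miR-99b/let-7e/miR-125a, had the opposite sign in lysates. All 6 of its lines had negative log2 fold changes, with a median of -1.37, and 2 of 6 fell, against 1.35% of all lines called lower. They were miR-99b-3p (-1.43, SE 0.33, edgeR adjusted p = 0.0354) and let-7e-5p (-1.32, SE 0.29, adjusted p = 0.0310). miR-99b-5p (-1.44, adjusted p = 0.0561) and miR-125a-5p (-1.11, adjusted p = 0.216) were not called, but were in the fit that blocks on date (-1.48 and -1.16, both adjusted p = 0.00221). In exosomes 3 of its lines were tested, all were negative and none was called (median -0.30).

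The 3 ratios of a member to its chromosome 17 paralog were added after their values were seen. miR-99a-5p to miR-99b-5p was 13.7, 12.5 and 8.10 in IL4 lysates, against 2.56, 1.38 and 2.03 in control lysates, a fold of 5.78 (exact permutation p = 0.1, the smallest possible, adjusted p = 0.206). miR-125b-5p to miR-125a-5p was 29.7, 22.5 and 15.0 in IL4 lysates, against 5.04, 2.74 and 4.00 in control lysates, a fold of 5.66 (exact permutation p = 0.1, adjusted p = 0.206). let-7c-5p to let-7e-5p was 72.7, 64.8 and 42.1 in IL4 lysates, against 21.9, 15.8 and 17.4 in control lysates, a fold of 3.20 (exact permutation p = 0.1, adjusted p = 0.206). Each was higher in every IL4 lysate than in any control lysate. In exosomes the same 3 folds were 2.27, 2.17 and 1.59, higher with IL4 at 4 of 4 dates, with adjusted exact permutation p of 0.192, 0.132 and 0.206.

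**Figure D5:**
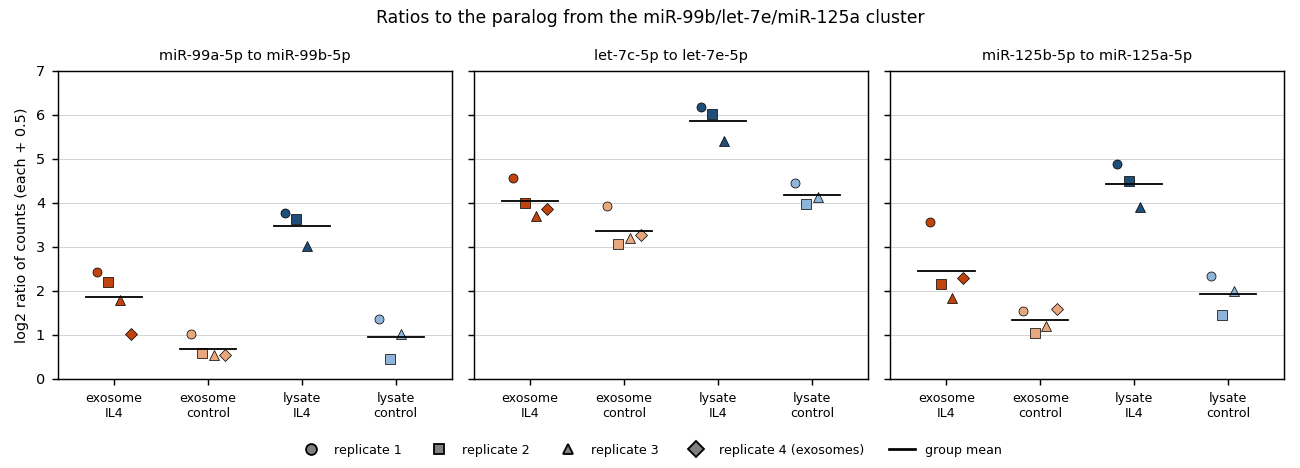
Log2 ratio of counts (each + 0.5) of each 5p member to its paralog of the miR-99b/let-7e/miR-125a cluster in every library, with symbols as replicate numbers and black lines as group means. In each panel the IL4 lysates lie above the control lysates with no overlap, and the IL4 exosomes have a higher mean than the control exosomes.

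Among the other products of the chromosome 9 and let-7c-2 loci, 3 of 4 listed had a line and 2 were tested, with no call in either IL4 comparison. let-7a-5p had a log2 fold change of 0.23 in exosomes (SE 0.30) and -0.16 in lysates (SE 0.12), and the joined line of let-7a-1-3p and let-7c-2-3p had -0.33 in exosomes (SE 0.36) and -0.36 in lysates (SE 0.29). let-7a-2-3p, the 3p arm of the hairpin between Mir100 and Mir125b-1, had 2 counts in IL4 lysates and none in the other groups. A count of 0 allows up to 4.89 CPM over the IL4 exosomes and 9.42 CPM over the control exosomes. miR-100-5p had 549 and 903 counts in these same groups, against 3 and 3 for miR-125b-1-3p. This sets a 5p arm beside 3p arms. Among the chromosome 16 members the 3p arm took 0.0952 to 1.64% of the reads of both arms. miR-100-3p, the 3p arm of Mir100, had no line. These counts therefore do not compare the output of the chromosome 9 hairpins. Of the 9 other miRNAs with the let-7 seed, 8 were tested in each IL4 comparison. Their median was 0.12 in exosomes with none called, and -0.14 in lysates with let-7e-5p alone called, as lower.

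Likeness was measured as the root mean square difference of centred log2 CPM on the TMM scale, as a description. Over the 6 lysates, the lines nearest to miR-99a-5p among 276 lines were miR-125b-2-3p (0.10), miR-125b-5p (0.17), miR-500-3p (0.17), miR-501-3p (0.22) and miR-100-5p (0.22). Further off, let-7c-5p came 19 (0.38) and let-7c-1-3p came 178 (0.71). Nearest to miR-125b-5p were miR-125b-2-3p (0.15), miR-99a-5p (0.17), miR-500-3p (0.31), miR-100-5p (0.33) and miR-378a-3p (0.35). From miR-125b-5p, let-7c-5p came 28 (0.54) and let-7c-1-3p came 135 (0.79). let-7c-5p was nearest to miR-23b-3p (0.10), miR-27b-3p (0.14), miR-340-5p (0.15), miR-361-5p (0.15) and miR-3068-5p (0.15), and miR-99a-5p came 151 in its order. Over the 8 exosomes the nearest to miR-99a-5p were miR-181b-5p, miR-130b-5p, miR-103-3p, miR-21a-5p and let-7c-5p (0.27 to 0.37), while miR-100-5p came 178 of 181 lines (2.27).

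The promoter of the host gene Mir99ahg is shown because both arms of miR-99a and miR-125b-2-3p, from its introns, rose in lysates, although neither let-7c line was called there. The sequence is from RefSeq (GRCm38.p6, chr16:77329078-77329377, plus strand), from 250 bases before to 50 bases after the start site, and the capitals mark a match to TTCNNNGAA.
Mir99ahg: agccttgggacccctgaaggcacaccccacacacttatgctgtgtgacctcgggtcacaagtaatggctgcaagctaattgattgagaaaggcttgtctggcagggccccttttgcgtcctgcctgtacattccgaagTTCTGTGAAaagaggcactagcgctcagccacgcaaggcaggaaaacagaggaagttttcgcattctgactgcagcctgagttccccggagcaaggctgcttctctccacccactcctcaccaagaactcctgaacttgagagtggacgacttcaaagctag

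TTCNNNGAA, a motif bound by STAT factors, occurred 1 time, with its first base 112 bases upstream of the start site, and 8.30% of the 32851 windows of the table hold it. TTCNNNNGAA, the spacing that STAT6 prefers, is not in this window and is in 6.95% of all windows. Each motif is its own reverse complement, so both strands were searched at once, and the motifs do not overlap in this window. The annotated host gene starts upstream of this window, so other start sites were not searched.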

How the data were processed

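Per the labels' protocols, a PerkinElmer NextFlex kit gave the small RNA libraries. The submitters' processing notes name cutadapt and the build mm10, and the sources used here name no aligner, counter or annotation. The authors deposited 1 table of raw counts per mature miRNA, which were not normalized. The 8 members, the lists and the tests were chosen with earlier results of these data known.

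Counts were tested with edgeR 4.0.16 (R 4.3.3; filterByExpr, TMM, quasi-likelihood test): IL4 within exosomes (182 lines), IL4 within lysates (443), and exosomes against lysates and the difference of the IL4 effects (338, 1 fit of 14 libraries). The standard error is the log2 fold change over the square root of F. DESeq2 1.42.0 was an alternative. The fits were tested on simulated counts. Ratios used a pseudocount of 0.5, were tested where both lines had 10 or more pooled counts in each group, and used scipy 1.17.1. All 8 members are named in every comparison; likeness names the 5 nearest lines with a mean of 10 CPM or more.

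The dates in the titles pair IL4 with control libraries. Deviations from group means correlated across lines at 0.19 to 0.72 in exosome pairs and 0.26 to 0.61 in lysate pairs. Correlations between libraries of different dates were not calculated. The main tests carried no term for date, and the fits that block on date are alternatives. No 2 libraries of a group were alike within sampling noise. Totals were 28417 to 411671 counts in exosomes and 3941480 to 6792079 in lysates. Marker lists covered muscle, epithelial, erythroid, myeloid, stromal, lymphocyte and endothelial miRNAs, and 1 list joined liver, gut and serum.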

Additional observations from a re-analysis of the deposited data

Results flagged for a closer look

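In 34 sets of 4 exosome libraries, a library far from the other 3 was looked for with Dixon's test, which chance flags in about 1 of 20 sets, and 6 were found. In 4 of them the other 3 libraries were at 0 counts, where any count in 1 library meets the test, so the 6 are not to be read against that rate. Replicate 3, the deepest library of either group, was the single exosome library with counts of miR-99a-3p, at 9.72 CPM with IL4 and 5.02 CPM in controls. It was likewise the single one with counts of miR-125b-1-3p, at 7.29 CPM with IL4 and 15.07 CPM in controls. let-7c-5p was highest in control exosome replicate 4, at 39151.4 CPM. The log2 ratio of miR-99a-5p to miR-99b-5p was highest in control exosome replicate 1, at 1.03.

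miR-100-5p was lower with IL4 at every exosome date and higher with IL4 at every lysate date. The lysate counts were low (310 with IL4 and 226 in controls), and the part of misassigned miR-99a-5p reads in them was not tested. The difference of the IL4 effects was -4.005 on the log2 scale, which did not pass (edgeR adjusted p = 0.857).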

How the results depend on the processing

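The number of lines called for IL4 in exosomes was 1, against 0 with scaling by library size, 12 with no filter on low counts, 6 with DESeq2, and 0 to 2 with 1 library left out. For IL4 in lysates it was 32, against 14 with library size, 4 in 1 fit of all 14 libraries, and 2 to 34 with 1 library left out. Library size moved the median log2 fold change over all lines to -0.25 in exosomes, against -0.09, and to -0.19 in lysates, against 0.00. Between exosomes and lysates the counts stayed within 1.5 times of the reported ones, at 142 to 187 calls in control samples and 127 to 179 in IL4 samples with 1 library left out. For the difference of the IL4 effects the count was 0, against 3 with no filter and 0 whichever library was left out. For the ratios it was 0 in every alternative. Beyond the fewer lines or libraries that some settings use, the cause was not tested.

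In the fits with a replicate block for the date, 50 lines were called in lysates, 1 in exosomes and 0 for the difference of the IL4 effects. Among the members the block changed the calls of let-7c-1-3p and miR-100-5p in lysates alone. A within-date permutation of the ratios cannot reach 0.05 with 4 or 3 dates, so its count of 0 was fixed in advance.

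Log2 values without a call changed sign as follows, and the cause was not tested. Between control exosomes and control lysates, let-7c-1-3p was 0.28 with DESeq2's size factors in edgeR, 0.71 with library size, 0.25 with DESeq2 and 0.11 without the libraries of 25 January. miR-125b-5p was 0.41, 0.78, 0.41 and 0.10 under the same 4 settings, and 0.24 in a fit of the control libraries alone. With library size miR-125b-2-3p was 0.35 there. Between IL4 exosomes and IL4 lysates, library size gave 0.012 for let-7c-5p, 0.19 for let-7c-1-3p and 0.22 for miR-125b-5p. The difference of the IL4 effects of miR-99a-5p was 0.14 with no filter. With miR-100-5p added to it, miR-99a-5p was -0.35 for IL4 in exosomes and 0.47 between control exosomes and lysates, where the call was lost and reversed. The ratio of let-7c-5p to let-7c-1-3p between IL4 exosomes and lysates was -0.081 with a pseudocount of 1. Without the libraries of 25 January, that of miR-125b-5p to let-7c-5p was -0.10 with IL4 in exosomes and -0.068 between IL4 exosomes and lysates.

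With 1 library left out, the difference of the IL4 effects ran from -0.27 to 0.18 for miR-99a-5p, -0.008 to 0.68 for let-7c-5p, -1.22 to 0.80 for let-7c-1-3p and -0.74 to 0.039 for miR-125b-5p. Between exosomes and lysates, let-7c-1-3p ran from -1.19 to 0.44 in control samples and -1.12 to 0.19 in IL4 samples, and miR-125b-5p from -0.41 to 0.43 in control samples. The log2 ratio of let-7c-5p to let-7c-1-3p ran from -0.96 to 0.90 with IL4 in exosomes and -0.83 to 0.015 in lysates, and between exosomes and lysates from -1.07 to 0.59 in control and -0.84 to 0.77 in IL4 samples. That of miR-99a-5p ran from -0.034 to 0.21 against miR-100-5p with IL4 in lysates, -0.13 to 0.31 against miR-125b-5p with IL4 in exosomes, and -0.074 to 0.21 against let-7c-5p between control exosomes and lysates. That of miR-125b-5p to let-7c-5p ran from -0.068 to 0.31 between IL4 exosomes and lysates.

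The exosome depth limits the 3p arms, none of which passed the count filter for IL4 there. The test without the libraries of 25 January was added after seeing the data, except for the edgeR test of IL4 in exosomes. Where 1 library of 3 is left out, the fit still rests on 2 libraries a group or more. The permutation tests cannot reach an adjusted call with 3 lysates against 3. In the other comparisons they can do so only if most tests come near their smallest p together.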
